A study of Mus musculus with 3 samples.

Results

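In the section of regenerating tibialis anterior collected at 7 days post injury (dpi), 233 of 966 spots were regenerating spots, or 24.1% of the section, and 325 spots, or 33.6%, were myofiber-rich. The remaining 408 spots, or 42.2%, were intermediate. The spots were chosen by their theta values. Theta gives, for a spot and a cell type, the part of the transcripts that deconvolution against a single-cell reference assigned to that type, and the 27 values of a spot sum to 1. The theta values of type IIb and type IIx myonuclei, the nuclei of fast myofibers, were summed for each spot. A sum below 0.5 made a spot regenerating and a sum of at least 0.8 made it myofiber-rich. The sum chose the spots and is therefore no finding, and because theta sums to 1, the other 25 types together had to be higher in regenerating spots.

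The study injected notexin, a snake venom toxin that destroys myofibers, into the tibialis anterior of female C57BL6/J mice aged 5 months, and collected 1 section at each of 2, 5 and 7 dpi. All 3 groups therefore share the strain, the toxin, the age and the muscle, and none is uninjured. The series holds 2758 spots in all, and the 7 dpi section had a median of 15135 unique molecular identifiers (UMIs, counted transcript molecules) per spot, with a range from 1059 to 48442. A spot of a Visium slide is a small barcoded region that can hold several cells or parts of cells. Spots of 1 section are not replicates, so no test was possible, no p-value is given, and every difference describes this section only. The sections lay in separate capture areas of 1 slide, so that time point, animal and capture area cannot be told apart. Between 568 and 739 spot barcodes were shared by any 2 sections, since every capture area carries the same barcode set.

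After toxin injury, muscle stem cells (MuSCs) leave quiescence, become committed myoblasts and then fusing myocytes, which join into new myofibers. Macrophages clear the debris and later take on forms linked to repair, here named M2. Fibro-adipogenic progenitors (FAPs) are stromal cells that lay down matrix around new fibers, and endothelial cells line the vessels of the muscle. Theta counts transcripts and not cells. In a spot, more cells of a type and more RNA per cell cannot be told apart.

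If a lead of fusing myocytes is taken as its mark, the name regenerating fitted most, but not all, of these spots. Fusing myocytes were the leading type other than myonuclei in 181 of the 233 regenerating spots, or 77.7% (95% exact Clopper-Pearson interval 71.8 to 82.9%). This lead was not particular to regenerating spots. Fusing myocytes also led 321 of 408 intermediate spots (78.7%) and 144 of 325 myofiber-rich spots (44.3%). Their median theta in the spots they led was 0.276 in regenerating, 0.150 in intermediate and 0.0410 in myofiber-rich spots. Intervals of shares of spots are over spots, and all intervals cover counting error only. Neural cells led in 18 spots, pro-remodeling FAPs in 9, adipogenic FAPs and tenocytes (tendon cells) in 7 each, and smooth muscle in 5. Dendritic cells and stem FAPs led 2 spots each, and Cxcl10+ monocytes and Cx3cr1-lo M2 macrophages led 1 spot each. For 52 spots, or 22.3%, the name therefore rests on a low share of myonuclear transcripts and not on a lead of fusing myocytes. In these 52 spots the median theta of fusing myocytes was 0.0675.

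The spots led by another type were shallower on the whole. Their median was 3221.5 UMIs and 1453 genes, against 18482 UMIs and 4424 genes in the spots led by fusing myocytes. Of the 52 spots, 25 (48.1%) had fewer than 3000 UMIs, against 2 of the 181 (1.10%). Neural cells led 17 of these 25 spots. The 9 spots led by pro-remodeling FAPs were deep, with a median of 16681 UMIs and a lowest of 7390, as were the 2 led by dendritic cells (median 21605.5 UMIs). The 18 spots led by neural cells were the extreme, with a median of 1855.5 UMIs, a highest value of 4478 UMIs and a neural theta from 0.154 to 0.680. The part of depth in the neural assignment was not tested. The median hemoglobin percentage was 0.197% in these 18 spots and 0.0191% in the 181. Regenerating spots had a median of only 4 hemoglobin UMIs, so these percentages rest on few counts over unequal depths. No difference in hemoglobin is read from them. Mitochondrial percentages lay close together, at a median of 9.52% in the 52 spots and 10.04% in the 181.

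**Figure D1:**
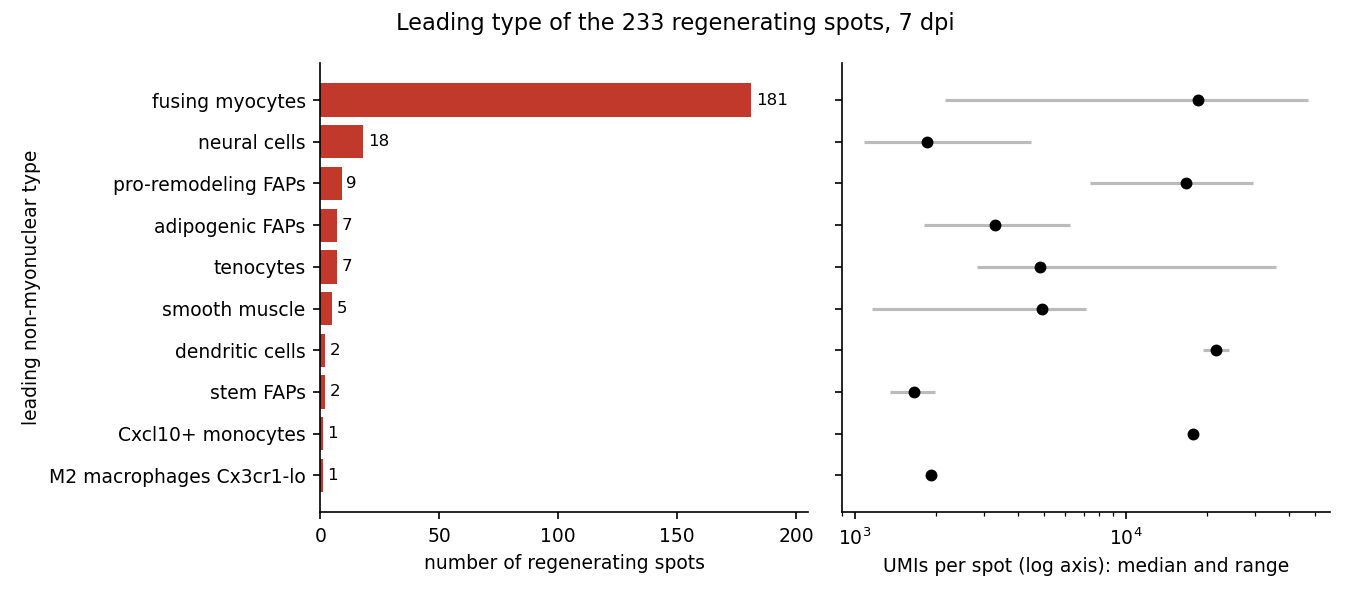
Leading type other than myonuclei in the 233 regenerating spots at 7 dpi. The left panel counts spots, and the right panel gives the median (point) and range (line) of UMIs per spot on a log axis. Fusing myocytes led 181 spots, and the 18 spots led by neural cells reached at most 4478 UMIs.

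Depth differed little between the groups at the median and much in spread. Regenerating spots had a median of 16776 UMIs, a lowest of 1085 and a highest of 46914. Myofiber-rich spots had a median of 15024 UMIs, a lowest of 2131 and a highest of 35332. The myofiber-rich range lay inside the regenerating one, with 18 regenerating spots below its lowest and 10 above its highest value. The ratio of the medians was 1.12. Spots under 3000 UMIs made up 11.6% of regenerating spots (27 of 233) and 0.923% of myofiber-rich spots (3 of 325).

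More genes were detected in regenerating spots. The median was 4159 genes per spot, with a range from 669 to 6760, against 2651 genes in myofiber-rich spots, with a range from 716 to 4773. The ratio was 1.57, and 324 of the 325 myofiber-rich spots lay below the median of the regenerating spots. At the other end, 58 of the 233 regenerating spots lay below the median of the myofiber-rich spots. Genes per 100 UMIs had medians of 24.9 and 17.99.

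Mitochondrial transcripts, which are abundant in mature fibers, separated the groups almost completely. They made up a median of 9.96% of UMIs in regenerating spots, from 2.77 to 20.4%, and 28.6% in myofiber-rich spots, from 11.4 to 47.2%. Every regenerating spot was below the lower quartile of the myofiber-rich spots, and 170 of 233 were below their lowest value. Summed over spots, 394178 of 3921071 UMIs were mitochondrial in regenerating spots (10.05%, interval over UMIs 10.02 to 10.1%), against 1352775 of 4809230 in myofiber-rich spots (28.1%, interval 28.1 to 28.2%).

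Transcripts of ribosomal protein genes, which encode parts of the machinery of protein synthesis, went the other way. Their median was 11.1% of UMIs in regenerating spots, from 4.15 to 21.5%, and 5.12% in myofiber-rich spots, from 3.06 to 9.08%. All but 1 of the 233 regenerating spots were above the median of the myofiber-rich spots, and 208 were above their highest value. A lower mitochondrial share by itself raises every other share. As a percent of the UMIs that were not mitochondrial, ribosomal protein transcripts had medians of 12.5% and 7.25%, a ratio of 1.73 in place of 2.17. Per the study's methods, the deconvolution left out mitochondrial and ribosomal protein genes, so both percentages come from transcripts that did not enter the theta values.

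**Figure D2:**
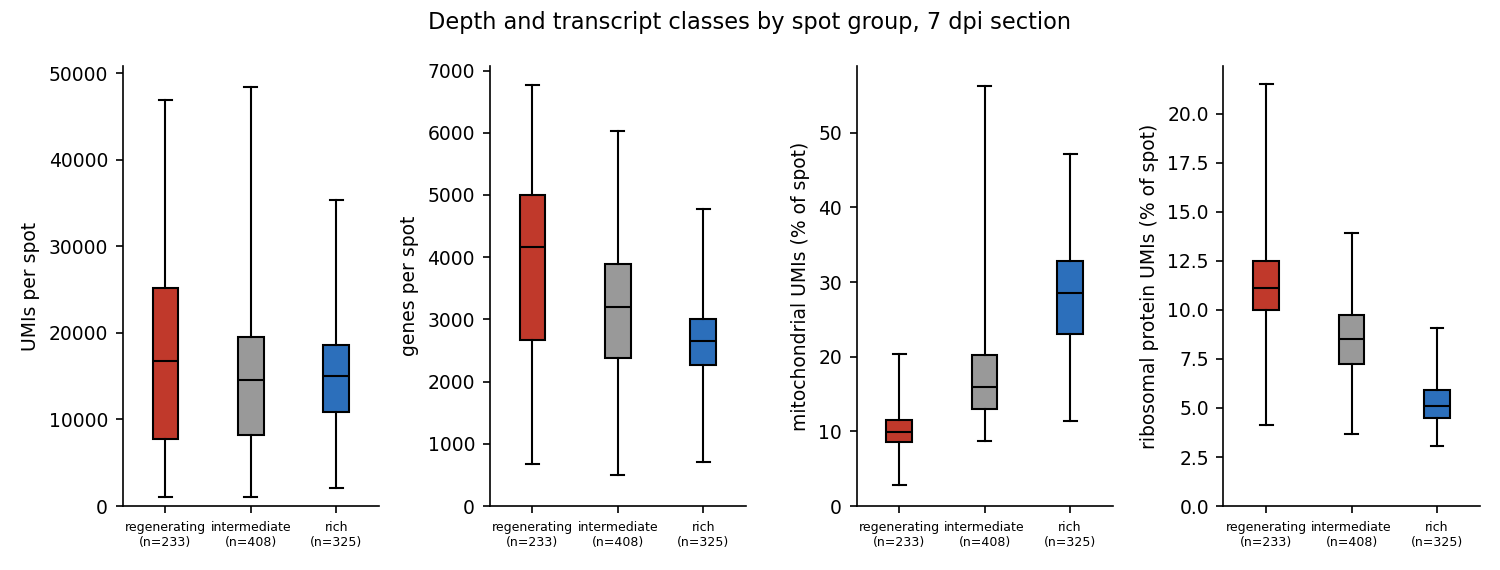
UMIs, genes, mitochondrial percent and ribosomal protein percent per spot at 7 dpi in regenerating (n = 233), intermediate (n = 408) and myofiber-rich (rich, n = 325) spots. Boxes give quartiles with the median as a line and whiskers give the lowest and highest spot. The boxes overlap for UMIs but are apart for mitochondrial transcripts (medians 9.96% and 28.6%) and ribosomal protein transcripts (medians 11.1% and 5.12%).

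Between 5000 and 10000 UMIs, where depth was alike, 29 regenerating and 58 myofiber-rich spots remained. This range lies below the lower quartile of all myofiber-rich spots (10869 UMIs) and below the median of all regenerating spots (16776 UMIs). It therefore compares shallower spots only. The medians of the 29 and 58 spots were 7838 and 8508.5 UMIs. Genes per spot were 2694 and 1870.5 at the median, a ratio of 1.44. Mitochondrial percentages were 9.95% and 30.3%, and their ranges did not overlap (highest 13.5% against lowest 14.9%). Ribosomal protein percentages were 10.8% and 4.85%, and their ranges were also apart (lowest 8.26% against highest 8.19%). The ratio for genes was thus somewhat under the 1.57 of all spots, and those for mitochondrial transcripts (0.328) and ribosomal protein transcripts (2.23) were as far from 1 as in all spots.

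Theta outside the myonuclei averaged 0.622 in regenerating and 0.125 in myofiber-rich spots. The 4 myogenic types filled 41.7% of this gap of 0.496, and fusing myocytes alone filled 41.1% of it. FAPs and tenocytes filled 26.1%, and monocytes, macrophages and dendritic cells 18.6%. Smooth muscle and neural cells filled 9.25%, and neural cells alone filled 7.33%. Lymphocytes and neutrophils filled 2.70%, and the 4 endothelial types 1.64%. In estimated UMIs (theta times the UMI count of the spot), myonuclei averaged 6409 per regenerating and 12980 per myofiber-rich spot, a ratio of 0.494. The other types averaged 10419 and 1818, a ratio of 5.73. The UMI count of a spot includes all transcripts, while theta came from marker genes only, without mitochondrial and ribosomal protein genes. Mitochondrial transcripts were 10.05% of UMIs in regenerating and 28.1% in myofiber-rich spots. Ribosomal protein transcripts went the other way, with 12.0% and 5.34%. Estimated UMIs therefore take in transcripts outside theta to an unequal extent in the groups.

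Of the 25 other types, 23 had a higher mean theta in regenerating spots, which the choice of spots favors. Theta was therefore also rescaled so that the 25 types sum to 1 in each spot. On this scale 8 types had a higher and 17 a lower mean in regenerating spots. A ratio of at least 1.5 was reached upward by 4 types (16.0% of the 25), namely fusing myocytes, pro-remodeling FAPs, Cx3cr1-hi M2 macrophages and neural cells. It was reached downward by 14 types (56.0%). With medians in place of means, 3 types were higher and 22 lower, and neural cells passed to the lower side.

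Low values on the rescaled scale are bounded by the deconvolution. No theta was 0, and the lowest theta of a spot had a median of 0.00099 in regenerating and 0.000631 in myofiber-rich spots. If all 25 types stood at that level, they would sum to 0.0248 of 0.596 and to 0.0158 of 0.121 of a median spot. The many types near this level therefore weigh more in the rescaled values of myofiber-rich spots.

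**Figure D3:**
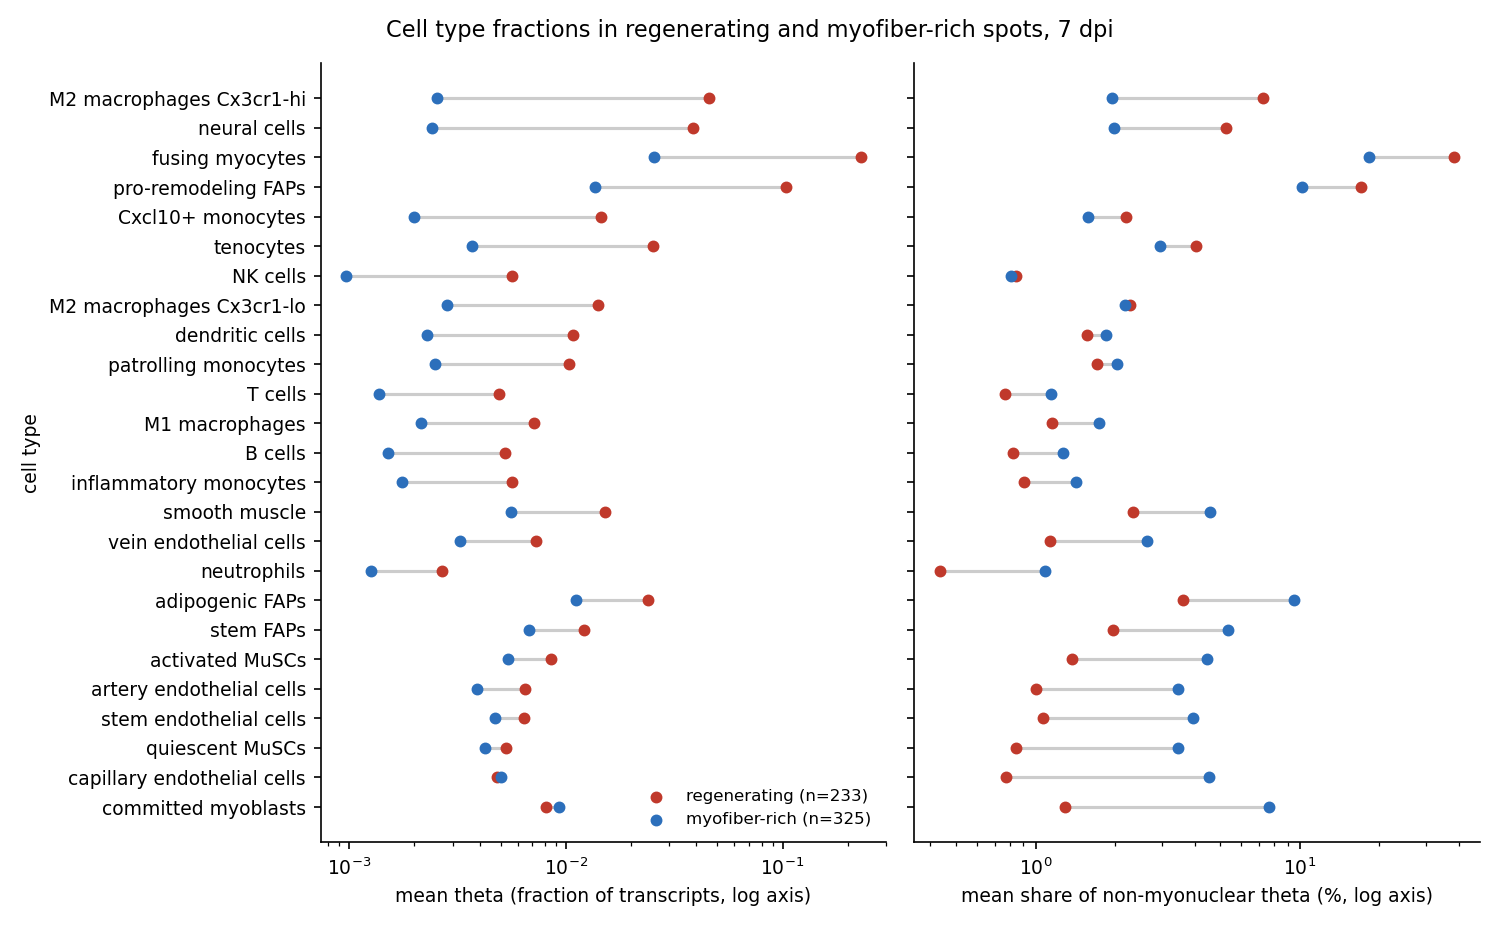
Mean theta (left) and mean share of theta outside the myonuclei (right), both on log axes, for 25 cell types in regenerating (red, n = 233) and myofiber-rich (blue, n = 325) spots at 7 dpi, ordered by the ratio on the right. On the left 23 types are higher in regenerating spots, and on the right 8 are, led by Cx3cr1-hi M2 macrophages.

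Among the myogenic types, fusing myocytes, the stage that joins into fibers, stood apart from the earlier ones. Their theta in regenerating spots had a median of 0.249, a lowest of 0.00758 and a highest of 0.482, and in myofiber-rich spots a median of 0.0165, a lowest of 0.00145 and a highest of 0.111. The means were 0.230 and 0.0255, a ratio of 8.99, and the rescaled means were 38.3% and 18.2%, a ratio of 2.10. A theta of at least 0.01 was found in 232 of 233 regenerating spots (99.6%, interval 97.6 to 99.99%) and in 209 of 325 myofiber-rich spots (64.3%, interval 58.8 to 69.5%). A theta of at least 0.1 was found in 196 and 5 spots.

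Fusing myocytes were thus widespread in regenerating spots and present at a low level in most myofiber-rich ones. Between 5000 and 10000 UMIs the mean thetas were 0.215 and 0.0375 (ratio 5.73) and the rescaled ratio was 1.48, under the 1.5-fold used here.

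The 3 earlier myogenic types did not follow. Committed myoblasts, the stage before fusion, had a mean theta of 0.00811 in regenerating and 0.00925 in myofiber-rich spots, with ranges of 0.000534 to 0.0581 and 0.00141 to 0.0998. They and capillary endothelial cells were the 2 types with a lower mean theta in regenerating spots, although between 5000 and 10000 UMIs both were higher there, at ratios of 1.27 and 1.64. Activated MuSCs, which have left quiescence, averaged 0.00856 and 0.00538, and quiescent MuSCs 0.00527 and 0.00422. Rescaled, committed myoblasts had a ratio of 0.169 (0.272 between 5000 and 10000 UMIs), quiescent MuSCs 0.243 and activated MuSCs 0.308. In estimated UMIs, fusing myocytes averaged 4557 and 348.1 per spot, quiescent MuSCs 60.9 and 61.4.

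Pro-remodeling FAPs, the FAP state named for matrix remodeling, were the next largest type. Their theta had a median of 0.103 in regenerating spots, from 0.00256 to 0.247, and of 0.00900 in myofiber-rich spots, from 0.000903 to 0.0737. The means were 0.103 and 0.0136, a ratio of 7.63, and the rescaled ratio was 1.68. At least 0.01 was reached in 219 of 233 regenerating spots (94.0%, interval 90.1 to 96.7%) and in 151 of 325 myofiber-rich spots (46.5%, interval 40.9 to 52.0%).

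The other FAP states differed from this one. Adipogenic FAPs, named for their bias toward fat cells, averaged 0.0239 and 0.0111, with nearly the same medians of 0.00931 and 0.00820. Stem FAPs averaged 0.0122 and 0.00672, with medians of 0.00438 and 0.00403. Their rescaled ratios were 0.381 and 0.364. Between 5000 and 10000 UMIs adipogenic FAPs had medians of 0.0166 and 0.00635, a ratio of 2.61, and a rescaled ratio of 0.671, which no longer reached 1.5-fold lower. Tenocytes averaged 0.0252 and 0.00370, with a rescaled ratio of 1.36 for means, 0.604 for medians and 0.817 between 5000 and 10000 UMIs.

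Among immune types, Cx3cr1-hi M2 macrophages differed most. Their theta had a median of 0.0398 in regenerating spots, from 0.00233 to 0.214, and of 0.00170 in myofiber-rich spots, from 0.000407 to 0.0185. The means were 0.0457 and 0.00253, a ratio of 18.1, and the rescaled ratio was 3.73, or 3.08 between 5000 and 10000 UMIs. At least 0.01 was reached in 188 of 233 regenerating spots (80.7%, interval 75.02 to 85.6%) and in 13 of 325 myofiber-rich spots (4.0%, interval 2.15 to 6.74%). Cx3cr1-lo M2 macrophages averaged 0.0141 and 0.00283, and their rescaled ratio was 1.05.

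Of the other monocyte, macrophage and dendritic types, which include the cells recruited early after injury, Cxcl10+ monocytes averaged 0.0146 and 0.00198 (rescaled ratio 1.39, for medians 0.821). Dendritic cells, which present antigen, averaged 0.0108 and 0.00229, carried by few spots (highest theta 0.391, median 0.00361). Patrolling monocytes averaged 0.0103 and 0.00248. M1 macrophages and inflammatory monocytes had rescaled ratios of 0.663 and 0.638, and between 5000 and 10000 UMIs they had 1.07 and 0.870, neither at least 1.5-fold lower. The 4 lymphocyte and neutrophil types had mean thetas of at most 0.00565 in either group, with rescaled ratios from 0.40 for neutrophils to 1.05 for NK cells.

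All 4 endothelial types were at least 1.5-fold lower on the rescaled scale, among the 14 of all 25 types (56.0%) that were. Capillary endothelial cells had nearly equal mean thetas of 0.00482 and 0.00503 and a rescaled ratio of 0.171. The rescaled ratios were 0.270 for stem, 0.292 for artery and 0.430 for vein endothelial cells. Before rescaling, these 3 types had a higher mean theta in regenerating spots, at ratios of 1.37, 1.66 and 2.25. For medians the artery type had a ratio of 0.995. Between 5000 and 10000 UMIs the capillary type had 0.333 and the vein type 0.817. There 3 of the 4 types stayed at least 1.5-fold lower, among 10 of all 25 types. Smooth muscle averaged 0.0151 and 0.00557, a rescaled ratio of 0.507 that passed to 1.34 between 5000 and 10000 UMIs.

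Neural cells averaged 0.0388 in regenerating and 0.00241 in myofiber-rich spots, a ratio of 16.1 that 18 spots carried. Their medians were nearly equal, at 0.00141 and 0.00132, and the rescaled ratio of 2.64 became 0.384 without the spots that neural cells led. Neural theta and UMIs had a rank correlation of -0.80 over the 233 regenerating spots, which share a library. Over the same spots the lowest theta of a spot had a rank correlation of -0.89 with UMIs. A fall with depth was therefore not particular to neural cells, whose median lay near that lowest level.

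Each of the 3 types was common in regenerating spots, and most of these spots held all 3. All of fusing myocytes, pro-remodeling FAPs and Cx3cr1-hi M2 macrophages reached a theta of 0.01 in 182 of 233 regenerating spots (78.1%, interval 72.2 to 83.2%), in 182 of 408 intermediate spots (44.6%) and in 8 of 325 myofiber-rich spots (2.46%, interval 1.07 to 4.79%). The product of the shares of regenerating spots with each type is 75.5%, close to the share with all 3, so no association beyond how common each type was is read from it. Their summed theta exceeded that of the myonuclei in 106 regenerating spots (45.5%). Pro-remodeling FAPs were second in 141 of the 181 spots that fusing myocytes led (77.9%), and Cx3cr1-hi M2 macrophages in 16. In the 144 myofiber-rich spots led by fusing myocytes, pro-remodeling FAPs were second in 54 (37.5%) and adipogenic FAPs in 30. A regenerating spot had a median of 8 types at 0.01 or more, and a myofiber-rich spot 4.

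Within the regenerating spots, the 3 types had positive rank correlations with each other and with depth, and lower ones in the deeper spots. Over the 233 spots, the rank correlation of fusing myocytes was 0.49 with pro-remodeling FAPs and 0.44 with Cx3cr1-hi M2 macrophages, and 0.66 with UMIs. The correlation of pro-remodeling FAPs with Cx3cr1-hi M2 macrophages was 0.37. On the rescaled scale the 3 pairs had 0.47, 0.32 and 0.30. In the 206 spots with at least 3000 UMIs the pairs had 0.31, 0.28 and 0.20, and rescaled 0.28, 0.10 and 0.082, and fusing myocytes with UMIs 0.54. The ribosomal protein percentage had a rank correlation of 0.64 with Cx3cr1-hi M2 macrophages and 0.36 with fusing myocytes. All points share 1 library and the theta values share 1 sum.

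Along the myonuclei sum the groups passed into each other. The median theta of fusing myocytes was 0.179 in the 48 spots with a myonuclei sum below 0.3, highest at 0.259 in the 185 spots from 0.3 to 0.5, and 0.189, 0.0859, 0.0261 and 0.00657 in the 4 following ranges. Pro-remodeling FAPs were highest in the same range, with 0.0838 below 0.3, then 0.106, and 0.00461 above 0.9. The median of Cx3cr1-hi M2 macrophages was highest below 0.3, at 0.0477, and 0.00112 above 0.9. Committed myoblasts stayed between 0.00502 and 0.00851 in all 6 ranges.

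**Figure D4:**
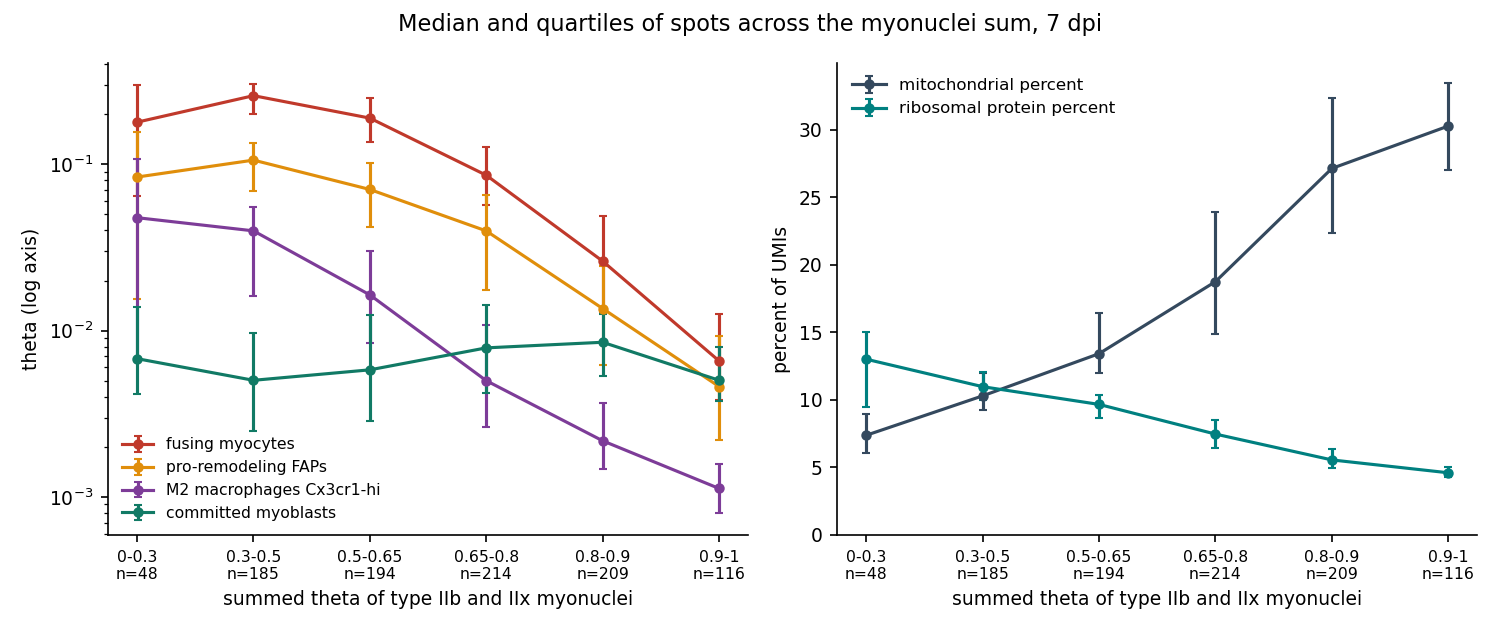
Median theta (left, log axis) of 4 types and median mitochondrial and ribosomal protein percent (right) in 6 ranges of the summed theta of type IIb and IIx myonuclei at 7 dpi, with bars from the lower to the upper quartile of spots. Fusing myocytes and pro-remodeling FAPs are highest from 0.3 to 0.5, and mitochondrial transcripts go from 7.38% to 30.3%.

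Over the same ranges the median mitochondrial percentage went from 7.38% to 30.3%, the ribosomal protein percentage from 13.0% to 4.60%, and the number of genes from 4436 to 2627. The median depth stayed between 14293.5 and 16897.5 UMIs. Spots on either side of a threshold had close values of fusing myocytes. The 10 spots just below 0.5 (sums 0.493 to 0.49966) had a median fusing myocyte theta of 0.256, and the 10 just above (0.5001 to 0.505) had 0.263, although their median depths were 11402 and 18986.5 UMIs and their pro-remodeling FAP medians 0.0768 and 0.108. The 10 spots just below 0.8 and the 10 just above had 0.0408 and 0.0502.

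The same thresholds at the earlier time points gave 230 and 385 spots at 2 dpi, and 155 and 439 at 5 dpi. At 2 dpi, patrolling monocytes led 178 of the 230 spots with a sum below 0.5 (77.4%). Fusing myocytes led 14, and the median spot had 4357.5 UMIs. At 5 dpi, fusing myocytes led 142 of 155 spots (91.6%). The mean theta of pro-remodeling FAPs in spots below 0.5 was 0.0223, 0.0767 and 0.103 at 2, 5 and 7 dpi. That of fusing myocytes was 0.0482, 0.287 and 0.230, and that of Cx3cr1-hi M2 macrophages 0.0205, 0.0608 and 0.0457.

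The transcript classes divided the spots alike in the 3 sections. For mitochondrial transcripts the ratio of medians was 0.335, 0.264 and 0.349 at 2, 5 and 7 dpi, and for ribosomal protein transcripts it was 2.26, 2.65 and 2.17. Of the 25 cell types, 16 had rescaled ratios on the same side of 1 in all 3 sections and 9 did not. In the same order of days, the rescaled ratio of pro-remodeling FAPs was 0.584, 1.41 and 1.68, that of Cx3cr1-hi M2 macrophages 0.95, 5.59 and 3.73, and that of patrolling monocytes 8.88, 1.10 and 0.841. With 1 section per time point these differences were not tested.

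**Figure D5:**
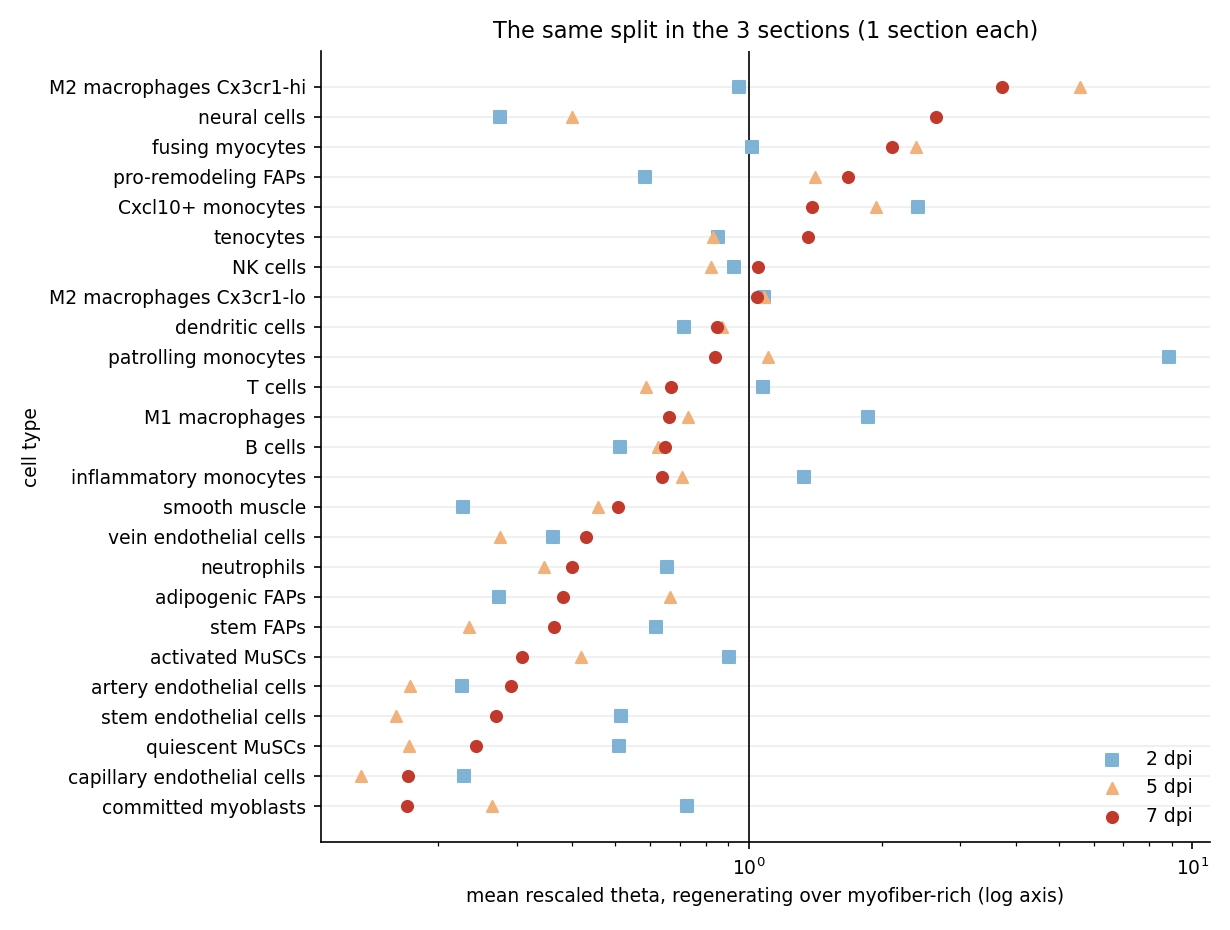
Ratio of mean rescaled theta between spots with a myonuclei sum below 0.5 and spots with a sum of at least 0.8 (log axis) for 25 cell types in the sections at 2 dpi (squares), 5 dpi (triangles) and 7 dpi (circles), with a line at 1. Patrolling monocytes lie at 8.88 at 2 dpi and 0.841 at 7 dpi, and the 4 endothelial types lie below 1 in each section.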

How the data were processed

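Spatial RNA sequencing of 3 mouse sections was analysed from deposited tables with 1 line per spot. Per the study's methods, the authors used the Visium 3′ kit, spaceranger and mm10, and picked tissue spots manually. The submitters' processing notes also name Seurat 3.2.1. The authors deposited UMI counts per spot without normalization, and the number of genes. Deposited percent values give mitochondrial, ribosomal protein and hemoglobin transcripts of a spot's UMIs. They gave whole UMIs in every spot to within 1e-06. The deposited theta values are fractions of transcripts over 27 cell types, estimated by the authors with BayesPrism from marker genes that excluded mitochondrial and ribosomal protein genes. The reference version may differ from that of the methods. Gene counts and image alignments were not used here, so no gene or sequence is named.

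Means and medians over spots, their ratios, and exact Clopper-Pearson 95% intervals were computed in Python 3.11.15 with scipy 1.17.1, and the code was tested on simulated data. Depth was 5710385, 10803761 and 14734531 UMIs at 2, 5 and 7 dpi. Sections were grouped by the day in their labels. Types were named if myogenic, at a mean theta of at least 0.01 in a group, or with a rescaled ratio of at least 2-fold, and others were given by counts and ranges, with examples chosen after their values were seen. The spots, types and lists were chosen with earlier results of these data known. Alternatives were medians, UMI weights, other thresholds and minimums, and spots by depth. Leaving out spots led by neural cells was chosen after seeing the data.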

Additional observations from a re-analysis of the deposited data

Results flagged for a closer look

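Between spots with a myonuclei sum below 0.5 and myofiber-rich spots, 9 of 25 types had rescaled ratios on opposite sides of 1 at 2 and 7 dpi, and 3 of these differed at least 1.5-fold on both days. The ratio was 0.584 at 2 dpi and 1.68 at 7 dpi for pro-remodeling FAPs, 1.86 and 0.663 for M1 macrophages, and 0.275 and 2.64 for neural cells. Neural cells also had a ratio of 0.401 at 5 dpi. For neural cells and M1 macrophages the side at 7 dpi depended on the processing. The 7 dpi ratio of neural cells was 0.203 for medians, and that of M1 macrophages was 1.07 between 5000 and 10000 UMIs. Each of these 7 dpi values lies on the same side of 1 as the ratio given above for 2 dpi. Each section is a single sample, so none of these differences was tested.

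Hemoglobin transcripts, which the comparison of cell types does not use, were above the limit that a count of 0 allows. They made up 0.0739% of UMIs in regenerating spots at 7 dpi (2896 UMIs, none in 29 of 233 spots) and 0.2003% in myofiber-rich spots (9631 UMIs, none in 15 of 325). The percentages per spot overlapped, from 0 to 7.86% and from 0 to 8.75%. At 2 dpi the order was the other way, with 0.0275% and 0.0124%.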

How the results depend on the processing

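Of 454 recomputed values, 306 counted as unmoved, 139 moved, and 9 ratios that were at least 1.5-fold passed to the other side of 1. A ratio counted as unmoved within a factor of 1.3, and a count of types within a factor of 1.5. A share of spots counted as unmoved inside the interval of its main value. The ratios of UMIs, genes, mitochondrial and ribosomal protein transcripts stayed within a factor of 1.3 in every alternative run. Among raw ratios, artery endothelial cells (1.66) passed to 0.995 for medians and 0.993 with UMI weights. Among rescaled ratios, neural cells (2.64) passed to 0.203 for medians, 0.417 with UMI weights, 0.329 between 5000 and 10000 UMIs, 0.353 from 3000 UMIs and 0.384 without the spots they led. Between 5000 and 10000 UMIs, M1 macrophages (0.663) passed to 1.07 and smooth muscle (0.507) to 1.34. The raw ratio of fusing myocytes was 15.1 for medians, 13.1 in estimated UMIs, 5.73 between 5000 and 10000 UMIs, 22.8 with thresholds of 0.4 and 0.9 (110 and 116 spots) and 5.11 with 0.6 and 0.7 (366 and 477 spots). In the same order, without the depth range, that of pro-remodeling FAPs was 11.4, 10.1, 16.4 and 4.10. That of Cx3cr1-hi M2 macrophages was 26.1 in estimated UMIs, 13.7 between 5000 and 10000 UMIs, and 40.2 and 10.01 with these thresholds. The rescaled ratio of fusing myocytes was 2.97 for medians and 1.48 between 5000 and 10000 UMIs, where 2 types in place of 4 were at least 1.5-fold higher and 10 in place of 14 at least 1.5-fold lower.

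Shares of spots followed the minimum theta. With 0.02 and 0.05 in place of 0.01, fusing myocytes were present in 97.4% and 91.4% of regenerating spots and 43.4% and 16.3% of myofiber-rich spots, pro-remodeling FAPs in 88.4% and 77.7% against 24.0% and 1.85%, and Cx3cr1-hi M2 macrophages in 67.4% and 36.9% against 0% and 0%. Between 5000 and 10000 UMIs at 0.01, fusing myocytes were present in 100% and 84.5%, and in myofiber-rich spots pro-remodeling FAPs in 34.5% and Cx3cr1-hi M2 macrophages in 1.72%. No paired analysis was possible because each time point has 1 section, which limits every value to the spread between spots.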
